A study of Mus musculus with 5 samples.

Results

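Monocyte marker genes are described here in CD11b-positive brain cells: 7 genes chosen by name (Ly6c2, Plac8, Chil3, Vcan, S100a4, Fn1 and Hp) out of 56748 in the count table. RNA came from 5 mice that were 7 months old, with 1 library per mouse and without the cerebellum. Some labels name the tissue and others the CD11b-positive cells as the source of the RNA. In 3 mice (replicates 1, 2 and 3) the 5xFAD background was combined with a mouse Cd5l transgene under the human PDGF-B promoter, in the state 5xFAD/Cd5l tg/wt, and these are called Cd5l-transgenic. The other 2 mice (replicates 1 and 3) were 5xFAD without it. All 5 therefore carried the 5xFAD transgenes, which encode mutant human amyloid precursor protein and presenilin and lead to amyloid plaques, and mice without 5xFAD were not analysed here. The PDGF-B promoter is widely used to drive transgenes in neurons, and which cells made the transgene's RNA was not measured here.

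Monocytes are blood cells of the myeloid lineage that leave the bone marrow through the chemokine receptor CCR2 and can enter inflamed tissue, where they become macrophages. They carry CD11b, as do microglia, neutrophils and border macrophages, so a CD11b-positive fraction can hold them beside microglia. Classical mouse monocytes are recognised by high Ly6C on their surface, and they share many transcripts with neutrophils. In bulk RNA, fewer cells of a type and less RNA per cell cannot be told apart.

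The libraries held between 30798377 and 34794617 counts, and 1 count was worth 0.0282 to 0.0339 CPM (counts per 1000000 after TMM scaling of library size), the unit used throughout. Cd5l stood at 234, 335 and 195 CPM in Cd5l-transgenic replicates 1, 2 and 3, against 1.53 and 0.254 CPM in 5xFAD replicates 1 and 3, so the libraries matched their labels. The 10 microglial identity genes together made 26418 to 28461 CPM in the Cd5l-transgenic libraries and 26182 to 27789 CPM in the 5xFAD libraries. Some libraries stood apart in RNA of other cells. Cd5l-transgenic replicate 2 held 4499 CPM of oligodendrocyte markers, against 390 to 1133 CPM in the other Cd5l-transgenic libraries and 360 to 381 CPM in 5xFAD. For choroid plexus markers, 5xFAD replicate 3 held 2805 CPM, against 447 CPM in 5xFAD replicate 1, and the Cd5l-transgenic libraries held 253 to 535 CPM.

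Some members have near-identical copies in the mouse genome, and their sequences are shown because they set how reads can be assigned. Ly6c2 and Ly6c1 encode the Ly6C proteins that the monocyte antibody recognises, and their coding sequences (GENCODE M21 on GRCm38, chromosome 15, minus strand) are identical at 387 of 396 bases, 97.7%. The first 90 coding bases hold 6 of the 9 differences, written in capitals.
Ly6c2: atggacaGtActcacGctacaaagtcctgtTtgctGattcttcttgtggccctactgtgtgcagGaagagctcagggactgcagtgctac
Ly6c1: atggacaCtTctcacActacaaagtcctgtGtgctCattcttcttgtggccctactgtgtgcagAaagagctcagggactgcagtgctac
Of all 100-base windows of the Ly6c2-201 transcript, 15.8% also occur in a Ly6c1 transcript, and of all 50-base windows 32.6%. Chil3 encodes the secreted chitinase-like lectin Ym1, and its copy Chil4 encodes Ym2. Their coding sequences (chromosome 3, minus strand) are 94.4% identical over 1209 aligned positions. The stretch from coding base 827 to 916, the ungapped 90 bases with the most differences, is shown with its 12 differences in capitals.
Chil3: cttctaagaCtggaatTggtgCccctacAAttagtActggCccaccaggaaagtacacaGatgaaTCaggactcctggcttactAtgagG
Chil4: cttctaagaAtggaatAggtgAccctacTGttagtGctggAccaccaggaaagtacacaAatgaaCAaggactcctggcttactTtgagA
Only 3.75% of the 100-base windows of the Chil3-201 transcript occur in Chil4. Chil4 had 0 counts in every library, whereas Chil3 had between 106 and 371.

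Promoters are shown for Ly6c2, Plac8 and Chil3, the members with the largest differences between the genotypes described below among those with a RefSeq promoter. RefSeq sequences (GRCm38.p6) from 250 bases before to 50 after a start site matched 5 of the 7 members; Fn1 and Hp had no entry. Both strands were searched for GAGGAA, a core that the myeloid factor PU.1 binds, and for TTGCNNAA, a site form of the C/EBP factors. Capitals mark the matches.
Ly6c2 (chr15:75111922-75112221, minus strand): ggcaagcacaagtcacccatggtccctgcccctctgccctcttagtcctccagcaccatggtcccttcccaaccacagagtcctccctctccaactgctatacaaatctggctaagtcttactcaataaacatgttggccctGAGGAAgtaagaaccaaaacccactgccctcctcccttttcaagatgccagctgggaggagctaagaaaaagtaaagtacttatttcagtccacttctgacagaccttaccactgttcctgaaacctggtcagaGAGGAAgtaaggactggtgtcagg
Plac8 (chr5:100572156-100572455, minus strand): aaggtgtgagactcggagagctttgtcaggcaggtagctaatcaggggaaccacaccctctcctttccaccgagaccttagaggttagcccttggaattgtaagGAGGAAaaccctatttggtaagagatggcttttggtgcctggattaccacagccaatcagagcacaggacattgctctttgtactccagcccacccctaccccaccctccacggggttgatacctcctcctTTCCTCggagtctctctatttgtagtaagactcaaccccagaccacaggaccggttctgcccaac
Chil3 (chr3:106167515-106167814, minus strand): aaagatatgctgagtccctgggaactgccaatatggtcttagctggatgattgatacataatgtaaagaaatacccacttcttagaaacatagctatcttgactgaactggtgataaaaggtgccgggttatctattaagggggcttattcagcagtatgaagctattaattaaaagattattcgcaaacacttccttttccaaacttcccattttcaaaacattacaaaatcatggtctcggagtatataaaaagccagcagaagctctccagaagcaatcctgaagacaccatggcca
GAGGAA occurred 2 times in the printed Ly6c2 promoter, on the printed strand at -108 and 27 from the start site. It occurred 2 times in the printed Plac8 promoter, at -146 and, on the other strand, at -15. A second RefSeq start site of each of the genes Ly6c2 and Plac8 has its own window, not printed here. That of Ly6c2 held GAGGAA at -142 and -8. That of Plac8 held no GAGGAA but the one TTGCNNAA match among the members, at -12 on the other strand. The Chil3 promoter held no match to either motif, nor did that of Vcan, and that of S100a4 held GAGGAA at 20 on the other strand. GAGGAA was present in 28.3% of all 32851 promoters and TTGCNNAA in 10.8%. These matches describe letters in the window and are not evidence of binding.

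The monocyte marker genes were low in these libraries, with 1 exception. Per kilobase of gene length, Fn1 was the most abundant, with 16.2 ± 5.81 CPM per kb in Cd5l-transgenic (SD, n = 3) and 9.91 ± 0.0124 CPM per kb in 5xFAD (SD, n = 2). Chil3 came next, with 5.55 ± 2.04 CPM per kb in Cd5l-transgenic and 2.70 ± 0.706 CPM per kb in 5xFAD. Hp averaged 2.33 ± 0.904 CPM per kb in Cd5l-transgenic and 1.65 ± 0.668 CPM per kb in 5xFAD. For Ly6c2 the means were 1.53 ± 1.46 CPM per kb in Cd5l-transgenic and 0.655 ± 0.210 CPM per kb in 5xFAD, and for Plac8 they were 1.46 ± 0.122 CPM per kb in Cd5l-transgenic and 0.725 ± 0.303 CPM per kb in 5xFAD. Vcan was lowest of the detected members, with 0.111 ± 0.0305 CPM per kb in Cd5l-transgenic and 0.0880 ± 0.0218 CPM per kb in 5xFAD. Within each of the 5 libraries Fn1 was highest, Chil3 next and Vcan lowest. Hp lay above Plac8 in every library, though only by 1.394 against 1.387 CPM per kb in Cd5l-transgenic replicate 3. Ly6c2 lay below both in 4 of the 5 libraries, though in 5xFAD replicate 1 only by 0.507 against 0.511 CPM per kb for Plac8. In Cd5l-transgenic replicate 1 Ly6c2 lay above both, over Hp only by 3.209 against 3.200 CPM per kb. With the gene length used, 2740 bases for Ly6c2, its place in the order by means is thus set by that library. The Ly6c2 transcript compared with Ly6c1 above is shorter, with 773 windows of 50 bases. Per kilobase of that transcript Ly6c2 would stand higher, and the order on that length was not computed. Between mice the ranges of Chil3, Hp and Ly6c2 overlapped, as did those of Hp, Ly6c2 and Plac8. By mean CPM, Fn1 ranked 1179 among the 17724 tested genes, Chil3 ranked 10139, and the other detected members lay between 11789 (Hp) and 13531 (Vcan).

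**Figure D1:**
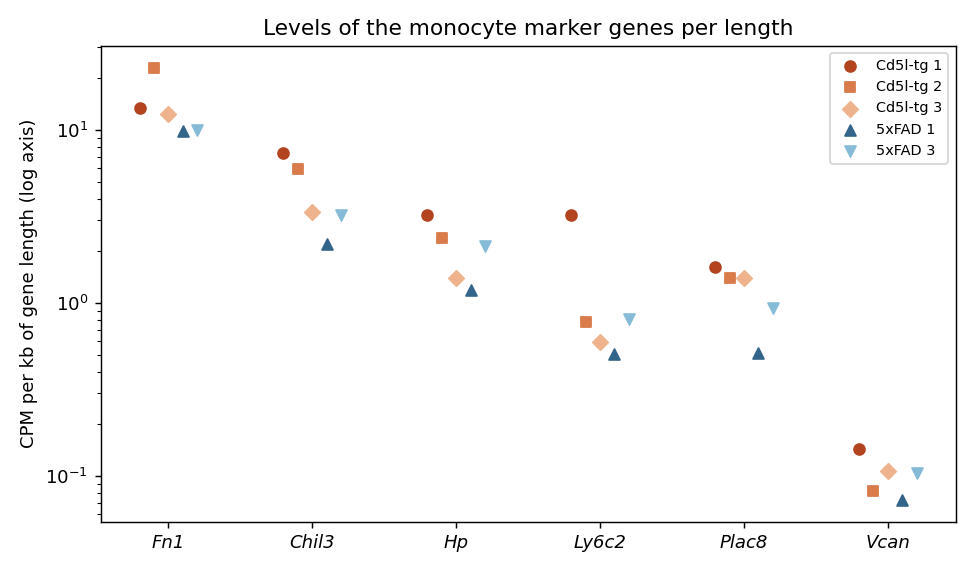
Level of each detected monocyte marker gene in each of the 5 libraries, in CPM per kilobase of gene length on a log axis; colours and shapes mark the libraries. Fn1 lies above the other members in every library, and Vcan lies lowest, between 0.0726 and 0.143.

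Across the comparison of Cd5l-transgenic with 5xFAD, 6 members could be tested and all 6 had a log2 fold change above 0, but none passed the test over all genes. In the edgeR quasi-likelihood test with Benjamini-Hochberg adjustment 0 of 17724 genes were called higher (0%) and 0 lower (0%), and Cd5l itself had an adjusted p of 0.765 there and of 5.79e-19 in the DESeq2 Wald test. A log2 fold change above 0 was found for 42.9% of all tested genes and one below 0 for 57.1%. The median of the 6 members was 0.86 beside -0.03 over all tested genes, and it was 0.49 without Cd5l-transgenic replicate 1. At an unadjusted p under 0.05 edgeR had 2 members (Plac8 and Chil3), DESeq2 had 3 (Fn1, Chil3 and Plac8) and limma-voom had 1 (Plac8). At that level edgeR had 1.22% of all genes higher and 1.46% lower, DESeq2 had 2.43% higher and 1.63% lower, and limma-voom had 0.903% higher and 2.11% lower. After adjustment DESeq2 called 9 genes higher (0.0615%) and 2 lower (0.0137%) of the 14631 to which it gave an adjusted p. With limma-voom 0 of 17724 genes were called in either direction (0%), and no member was called by either. In 3 of the 6 members (Plac8, Chil3 and Fn1) every Cd5l-transgenic library lay above both 5xFAD libraries, which held for 7.2% of all tested genes, and in none did they all lie below, as for 8.69%. Each of the 6 had at least 24 counts in every library, so none entered the test through 1 genotype alone.

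**Figure D2:**
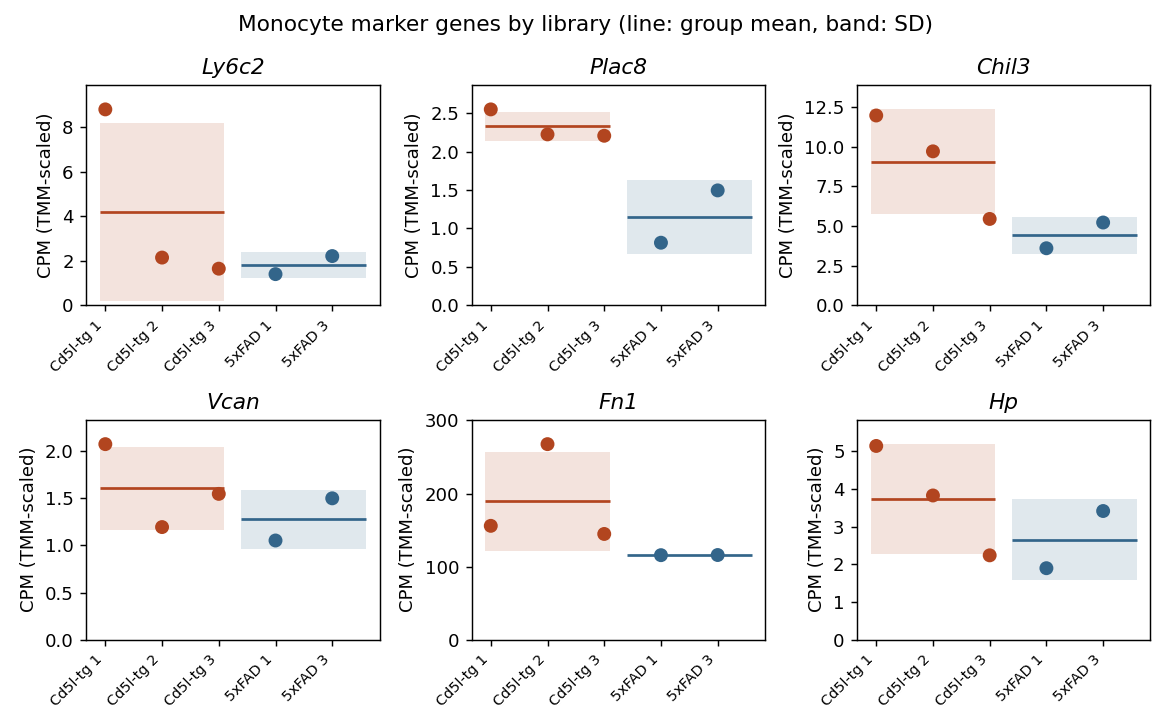
TMM-scaled CPM of 6 monocyte marker genes in each library, Cd5l-transgenic in red and 5xFAD in blue, with the group mean as a line and the SD as a band (n = 3 and n = 2). The groups do not overlap for Plac8, Chil3 and Fn1, and for Ly6c2 the value of 8.79 CPM in Cd5l-transgenic replicate 1 stands apart.

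Ly6c2 (ENSMUSG00000022584, chromosome 15, 74980007 to 74983819, GRCm39) encodes the Ly6C surface protein that defines classical monocytes. It had 8.79, 2.13 and 1.63 CPM in Cd5l-transgenic replicates 1, 2 and 3, against 1.39 and 2.20 CPM in 5xFAD replicates 1 and 3. Only Cd5l-transgenic replicate 1 was high, and the other 4 libraries overlapped within the range from 1.39 to 2.20 CPM. The log2 fold change was 1.22 (SE 0.83, edgeR adjusted p = 0.999), and without Cd5l-transgenic replicate 1 it was 0.07 (SE 0.43, edgeR adjusted p = 1).

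The near-identical Ly6c1, which brain endothelium expresses, followed another order. Ly6c1 stood at 42.9, 97.5 and 52.3 CPM in the Cd5l-transgenic libraries, against 33.9 and 42.4 CPM in 5xFAD. Of the counts given to the gene pair, Ly6c2 took 17.01% (95% Wilson interval 15.3 to 18.9) in Cd5l-transgenic replicate 1, 2.14% (1.69 to 2.71) in replicate 2 and 3.03% (2.33 to 3.94) in replicate 3. In 5xFAD it took 3.94% (2.92 to 5.30) in replicate 1 and 4.93% (3.97 to 6.12) in replicate 3. These intervals cover counting error only. The share was thus highest in the library with the high Ly6c2 value and lowest in that with the most Ly6c1. The assignment of reads that both copies share was not given in the sources used here.

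Plac8 (ENSMUSG00000029322, chromosome 5, 100701591 to 100720111) encodes a small cysteine-rich protein of myeloid and lymphoid cells. It had 2.55, 2.23 and 2.21 CPM in Cd5l-transgenic replicates 1, 2 and 3, against 0.813 and 1.50 CPM in 5xFAD replicates 1 and 3. It had the tightest Cd5l-transgenic values of the members, with a coefficient of variation of 8.33%, and the ratio of means was 2.02. The log2 fold change was 1.01 (SE 0.37), with an unadjusted p of 0.0349 and an adjusted p of 0.999 in edgeR. Its counts were small, at 79, 71 and 73 against 24 and 53. With exact 95% Poisson intervals, Cd5l-transgenic replicate 3 at 1.73 to 2.78 CPM overlapped 5xFAD replicate 3 at 1.12 to 1.96 CPM. Leaving out 5xFAD replicate 1 gave a log2 fold change of 0.64, and leaving out 5xFAD replicate 3 gave 1.51.

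Chil3 (ENSMUSG00000040809, chromosome 3, 106054870 to 106074880) is made by monocytes, neutrophils and alternatively activated macrophages. It had 11.99, 9.72 and 5.45 CPM in Cd5l-transgenic replicates 1, 2 and 3, against 3.59 and 5.22 CPM in 5xFAD replicates 1 and 3. Cd5l-transgenic replicates 1 and 2 were high, while replicate 3 exceeded 5xFAD replicate 3 by less than counting error (intervals 4.68 to 6.30 and 4.50 to 6.03 CPM). The log2 fold change was 1.04 (SE 0.38), with an unadjusted p of 0.0357 and an adjusted p of 0.999 in edgeR.

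Hp (ENSMUSG00000031722, chromosome 8, 110301760 to 110305804) encodes haptoglobin, the plasma protein that binds free haemoglobin, which myeloid cells make as well as the liver. It had 5.14, 3.83 and 2.24 CPM in Cd5l-transgenic replicates 1, 2 and 3, against 1.90 and 3.41 CPM in 5xFAD replicates 1 and 3. The groups overlapped, with Cd5l-transgenic replicate 3 between the 5xFAD libraries. The log2 fold change was 0.49 (SE 0.45, edgeR adjusted p = 0.999). It was 0.13 without 5xFAD replicate 1 and 0.97 without 5xFAD replicate 3, and 0.19 and 0.77 without Cd5l-transgenic replicates 1 and 3.

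Fn1 and Vcan encode large matrix proteins that monocytes make but that vascular cells, fibroblasts and oligodendrocyte precursors make too. Fn1 (fibronectin, ENSMUSG00000026193, chromosome 1, 71624679 to 71692359) had 156, 267 and 145 CPM in Cd5l-transgenic replicates 1, 2 and 3, against 116 CPM in each of the 5xFAD libraries. Every Cd5l-transgenic library was above the 5xFAD ones, and replicate 2 was highest by far. Its log2 fold change was 0.71 (SE 0.29), with an unadjusted p of 0.0573 and an adjusted p of 0.999 in edgeR. Without Cd5l-transgenic replicate 2 it was 0.39 (SE 0.08) with an unadjusted p of 0.00397 and an adjusted p of 1 in edgeR, so smaller but tighter.

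Vcan (versican, ENSMUSG00000021614, chromosome 13, 89803431 to 89890628) had 2.07, 1.19 and 1.54 CPM in Cd5l-transgenic replicates 1, 2 and 3, against 1.05 and 1.50 CPM in 5xFAD replicates 1 and 3. The groups overlapped, and the log2 fold change of 0.33 (SE 0.39, edgeR adjusted p = 0.999) was within the spread between mice. It was 0.10 without 5xFAD replicate 1 or without Cd5l-transgenic replicate 1, and 0.60 and 0.51 without 5xFAD replicate 3 and without Cd5l-transgenic replicate 2. The antisense gene Gm4117 overlaps Vcan over 3050 bases and had 3 to 13 counts in Cd5l-transgenic and 9 to 14 counts in 5xFAD.

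S100a4 (ENSMUSG00000001020, chromosome 3, 90511078 to 90513352), a calcium-binding protein gene of monocytes and fibroblasts, had 0 counts in all 5 libraries and was not tested. A count of 0 allows up to 3 counts, or 0.0908 to 0.0970 CPM in the Cd5l-transgenic libraries and 0.0847 to 0.102 CPM in the 5xFAD libraries, by counting error only. By its deposited coordinates S100a4 overlaps Gm42674 on the same strand over 2115 bases (90509211 to 90513192), and Gm42674 also had 0 counts throughout. In the GENCODE M21 annotation on GRCm38, 302 of the 584 exonic bases of S100a4 (51.7%) belong to exons of Gm42674 as well. The counting rule for shared exons was not given in the sources used here; its part in the 0 was not tested. The neighbouring S100a6 was counted, at 3.75, 3.26 and 1.45 CPM in Cd5l-transgenic replicates 1, 2 and 3 and 1.56 and 3.56 CPM in 5xFAD.

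**Figure D3:**
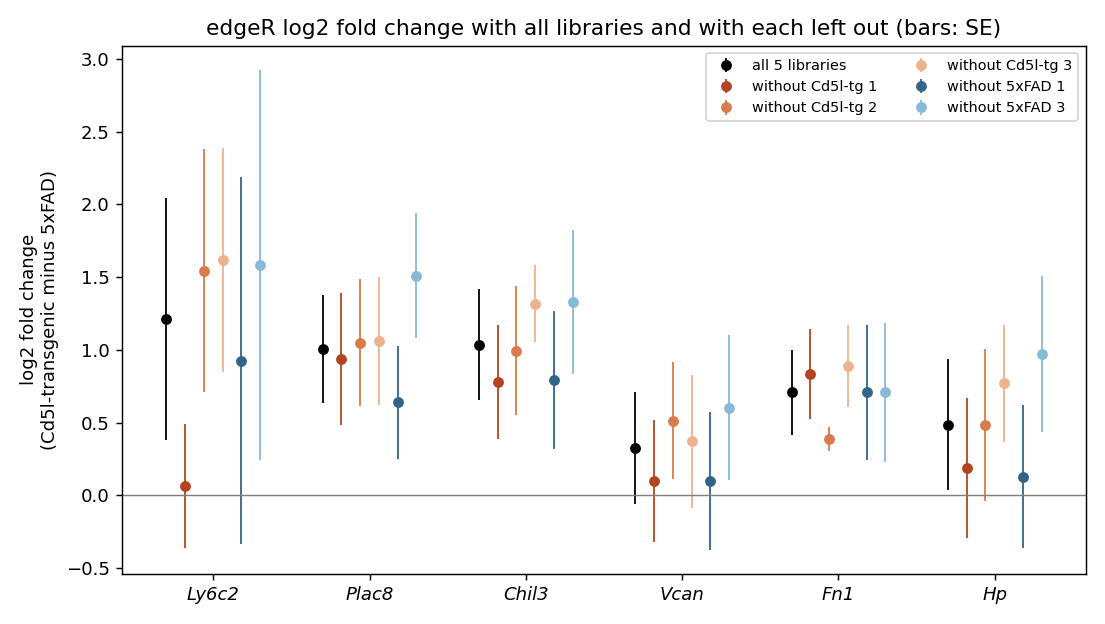
edgeR log2 fold change (Cd5l-transgenic minus 5xFAD) of 6 monocyte marker genes with all 5 libraries in black and with each library left out in colour; bars are standard errors. Ly6c2 is at 0.07 without Cd5l-transgenic replicate 1 and Fn1 at 0.39 without replicate 2, while no value lies below 0.

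The members did not share a single order of the libraries. On the log2 scale around its own mean, each of the 6 was lowest in 5xFAD replicate 1. For Fn1 that was only by 115.7 against 115.9 CPM in 5xFAD replicate 3, within counting error. In Cd5l-transgenic replicate 1, 5 of the 6 were highest, the exception being Fn1. The median centred level was 0.63, 0.32 and -0.17 in Cd5l-transgenic replicates 1, 2 and 3, against -0.75 and -0.19 in 5xFAD replicates 1 and 3. Cd5l-transgenic replicate 3 and 5xFAD replicate 3 were thus nearly level. Without Fn1, whose level exceeds that of the others together, the summed members stood at 30.5, 19.1 and 13.1 CPM in Cd5l-transgenic, against 8.74 and 13.8 CPM in 5xFAD, and the groups overlapped.

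Genes most alike in profile over the 5 libraries were found among 10945 other genes averaging 5 CPM or more, by Euclidean distance of centred log2 CPM. For Chil3 they were the neutrophil granule genes Ltf (distance 0.19) and Ngp (0.24), lactoferrin and neutrophilic granule protein. Ly6c2 was nearest to Btla (0.75) and S100a8 (0.91), both farther away than for any other member. Plac8 was nearest to Plbd1 (0.50) and Fbln5 (0.61), and Vcan to Gm16332 (0.20) and the chemokine receptor gene Ccr1 (0.24). Fn1 was nearest to Paqr8 and Filip1 (0.19 each), and Hp to Adrb1 (0.17) and Amt (0.39). For the median profile of the members the nearest genes were Vsig10 (0.38), Crybb1 (0.42), Plbd1 (0.47), Rps4l (0.48) and Slc25a27 (0.48).

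Other monocyte genes were compared as a check on the label, and none of them passed in edgeR. Of 12 further classical monocyte genes 11 were tested and 10 lay above 0, with a median log2 fold change of 0.35. Their summed level was 141, 95.8 and 131 CPM in Cd5l-transgenic replicates 1, 2 and 3, against 95.4 and 106 CPM in 5xFAD. The groups thus overlapped. F13a1 was the largest part of that sum, at 77.2, 48.2 and 77.6 CPM in Cd5l-transgenic, against 47.5 and 58.7 CPM in 5xFAD. Which cells made the F13a1 RNA was not tested. The ficolin gene Fcnb (log2 fold change 1.29, SE 0.56) and the neutrophil surface gene Cd177 (0.88, SE 0.44) had the smallest p in that list. Fcnb rested on few counts, at 10, 8 and 15 in Cd5l-transgenic replicates 1, 2 and 3, against 4 and 5 in 5xFAD. Ccr2, the chemokine receptor gene of classical monocytes, was named here after its values were seen. It had 13.4, 11.5 and 14.7 CPM in Cd5l-transgenic, against 10.5 and 11.1 CPM in 5xFAD (log2 fold change 0.30, SE 0.15). Its groups did not overlap. Such separation upward held for 2 of the 11 tested genes of that list, Ccr2 included, and for 7.2% of all tested genes. Of 10 genes of non-classical, patrolling monocytes 6 lay above 0 (median 0.15). Cd9 and Nr4a1 had the highest levels on that list, averaging 1148 and 477 CPM over the 5 libraries. Which cells made the RNA of those genes was not measured. Treml4 stood at 0.743, 1.10 and 1.39 CPM in Cd5l-transgenic, against 0.542 and 0.423 CPM in 5xFAD (log2 fold change 1.16, SE 0.44). Ace, the angiotensin-converting enzyme gene, was the other of that list with the smallest p and lay below 0, at -0.87 (SE 0.46). It had 27.6, 45.4 and 29.1 CPM in Cd5l-transgenic, against 33.6 and 90.6 CPM in 5xFAD, with overlap, and was highest in 5xFAD replicate 3, the library with the most choroid plexus RNA, whose part in Ace was not tested.

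The sum of neutrophil markers without Csf3r moved with Chil3 and, less clearly, with Hp. It shared the high value of Cd5l-transgenic replicate 1 with Ly6c2. Of 14 neutrophil genes 13 were tested and 11 lay above 0, with a median log2 fold change of 1.03, and 0 were called in edgeR. The whole list summed to 1042, 1169 and 1147 CPM in Cd5l-transgenic replicates 1, 2 and 3, against 1143 and 1130 CPM in 5xFAD. Most of that sum was Csf3r, which lay below 0, at -0.14 (SE 0.14). It had 814, 994 and 1061 CPM in Cd5l-transgenic, against 1074 and 1040 CPM in 5xFAD, and was lowest in Cd5l-transgenic replicate 1. Without Csf3r, the other 13 genes together stood at 228, 176 and 86.5 CPM in Cd5l-transgenic, against 69.3 and 90.2 CPM in 5xFAD. Cd5l-transgenic replicates 1 and 2 were high, as for Chil3. Cd5l-transgenic replicate 3 lay within the 5xFAD range, as for Chil3 within counting error and for Hp. For Hp, Cd5l-transgenic replicate 2 and 5xFAD replicate 3 overlapped within counting error. They stood at 3.83 and 3.41 CPM, with intervals of 3.18 to 4.57 and 2.83 to 4.08 CPM. Camp, the cathelicidin gene (log2 fold change 1.42, SE 0.37), and Ngp (1.07, SE 0.38) had the smallest unadjusted p, 0.00847 and 0.0352 in edgeR. Mpo and Elane, peroxidase and elastase genes of neutrophil precursors named here after their values were seen, went another way. Mpo had 1, 0 and 57 counts in Cd5l-transgenic replicates 1, 2 and 3, against 26 and 15 in 5xFAD, and Elane had 0, 6 and 13 counts in Cd5l-transgenic, against 6 and 9 in 5xFAD. No gene of the list was at 0 in all libraries. The part of neutrophil RNA in the values of Chil3, Hp and Ly6c2 was not tested.

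The sums of vascular, oligodendrocyte and erythroid markers were all highest in Cd5l-transgenic replicate 2, the library in which Fn1 was highest. All 12 endothelial genes lay above 0 (median log2 fold change 0.72), none was called in edgeR, and they summed to 994, 1771 and 1019 CPM in Cd5l-transgenic replicates 1, 2 and 3, against 915 and 919 CPM in 5xFAD. All 10 mural genes, of smooth muscle cells and pericytes, lay above 0 as well (median 0.61), with sums of 411, 581 and 428 CPM in Cd5l-transgenic, against 313 and 335 CPM in 5xFAD. Cd5l-transgenic replicate 3 lay above replicate 1 in both sums, whereas for Fn1 replicate 1 lay above replicate 3. Within the mural list Cspg4 was highest in Cd5l-transgenic replicate 1. It had 128, 71.2 and 41.9 CPM in Cd5l-transgenic, against 105 and 51.75 CPM in 5xFAD. The 8 oligodendrocyte genes stood at 1133, 4499 and 390 CPM in Cd5l-transgenic, against 381 and 360 CPM in 5xFAD, and the 6 erythroid genes at 7.47, 21.3 and 8.81 CPM in Cd5l-transgenic, against 2.44 and 1.50 CPM in 5xFAD. The endothelial adhesion gene Pecam1 stood at 0.80 (SE 0.30) on the log2 scale, and the contractile genes Myh11 and Tagln of the mural list stood at 1.15 (SE 0.18) and 1.00 (SE 0.20). DESeq2 called 3 mural genes higher, with adjusted p of 1.94e-05 for Myh11 and 0.0226 for Tagln, while edgeR called 0. The sum of fibroblast markers stood apart from Fn1, with 30.7, 49.7 and 38.9 CPM in Cd5l-transgenic, against 35.4 and 57.5 CPM in 5xFAD. Col6a3 was its largest part, at 19.4, 24.2 and 21.8 CPM in Cd5l-transgenic, against 25.6 and 25.8 CPM in 5xFAD. Dcn, Col3a1 and Slc6a13 were highest in Cd5l-transgenic replicate 2, as Fn1 was. Lum was highest in Cd5l-transgenic replicate 3, and the other fibroblast genes in 5xFAD replicate 3. The part of RNA from any of these cells in Fn1 was not tested, and its log2 fold change without Cd5l-transgenic replicate 2 is given above.

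**Figure D4:**
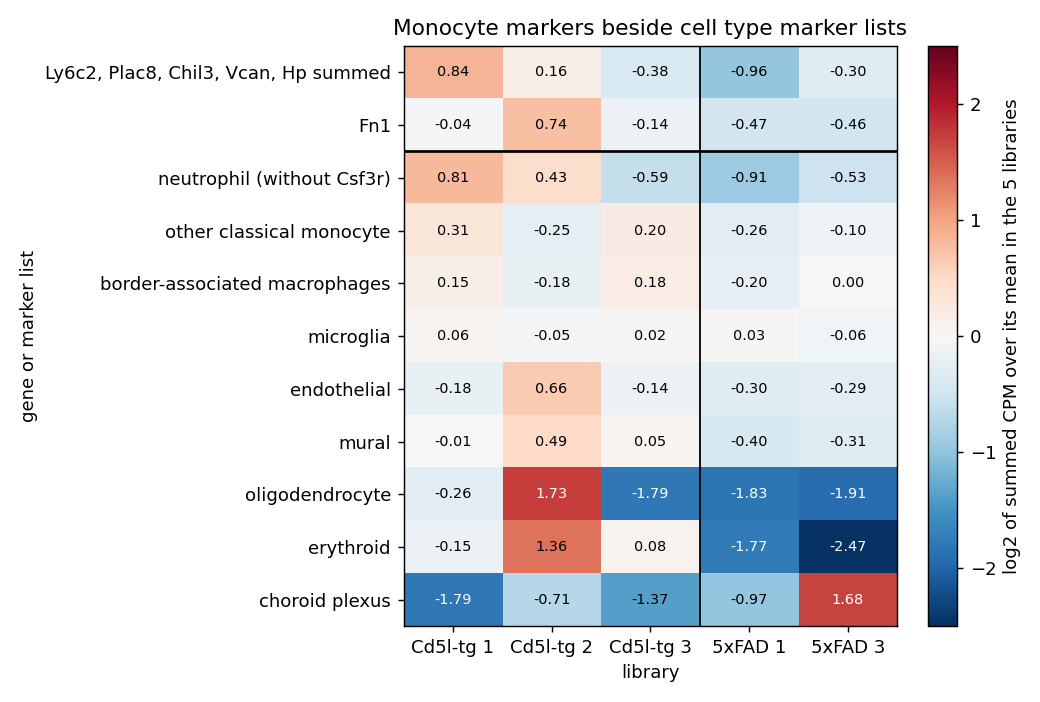
Summed CPM of monocyte markers, of Fn1 alone and of marker lists of other cells in each library, as log2 over the mean of the 5 libraries; red is above and blue below that mean. The sums of the small members and of the neutrophil genes without Csf3r are highest in Cd5l-transgenic replicate 1 (0.84 and 0.81). Fn1 and the endothelial, mural, oligodendrocyte and erythroid sums are highest in Cd5l-transgenic replicate 2.

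Ligands and receptors that recruit monocytes gave no call in edgeR. Of 9 ligand genes 8 were tested and 6 lay above 0, with a median log2 fold change of 0.22. The stromal chemokine Cxcl12 (1.17, SE 0.57) and the fractalkine gene Cx3cl1 (0.88, SE 0.45) had the smallest p, and both were highest in Cd5l-transgenic replicate 2. Of 18 receptor and adhesion genes 16 were tested, 12 lay above 0 and the median was 0.13. Cxcr4, the receptor of CXCL12, had 50.8, 49.8 and 52.8 CPM in Cd5l-transgenic, against 93.9 and 71.2 CPM in 5xFAD. Its edgeR log2 fold change was -0.69 (SE 0.12), and it fell in the DESeq2 Wald test (adjusted p = 0.0226) but not in edgeR (adjusted p = 0.999).

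Partners of the members were compared by family, and edgeR called none. Of 18 receptors, hyaluronan genes and proteases that act with fibronectin and versican 15 were tested, 9 lay above 0 and the median log2 fold change was 0.02. The integrin chain Itga8 (0.90, SE 0.30) and the transglutaminase Tgm2 (0.42, SE 0.15), which crosslinks fibronectin, had the smallest p. The groups did not overlap for either. In that list every Cd5l-transgenic library lay above both 5xFAD libraries for 3 genes and below both for 1. Over all tested genes this held for 7.2% and 8.69%. Of 15 S100 and annexin genes 13 were tested and 10 lay above 0 (median 0.15), led by the alarmins S100a9 (1.10, SE 0.45) and S100a8 (1.05, SE 0.51), which are also in the neutrophil list. Of 10 genes that handle haemoglobin and haem, the ligand and product of the haptoglobin route, 6 lay above 0 (median 0.03), and the haem oxygenase gene Hmox1 stood at -0.23 (SE 0.09). In the Ly6 family 9 of 12 genes were tested and 7 lay above 0 (median 0.70), Ly6a at 0.86 (SE 0.35). In the chitinase-like family 3 of 7 were tested, 1 above 0 (median -0.15), and Chil4, Chil6 and Chit1 had 0 counts in all libraries. Of 12 transcription factors of monocytes 11 were tested and 3 lay above 0, with a median of -0.02. The orphan nuclear receptor Nr4a1, which non-classical monocytes need, stood at -0.51 (SE 0.29), and the myeloid factor Cebpa at -0.12 (SE 0.09). Nr4a1 averaged 477 CPM and Cebpa 635 CPM over the 5 libraries, against 3.23 CPM for Ly6c2. Which cells made the RNA of these factors was not measured.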

How the data were processed

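Counts per Ensembl gene were used as deposited by the authors, raw whole numbers for 56748 genes in 5 libraries, and gene lengths and coordinates are those of the table. The submitters' processing notes name GRCm39 (mm39) as build; aligner, counting tool, annotation release, strand setting and how the cells were isolated were not given in the sources used here. Columns were matched by library name, 1 of them with its letter pairs in the other order, and 0 per-sample columns were left unused. No label gives a batch or a date.

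Genes were filtered with filterByExpr by genotype (17724 kept), scaled by TMM (factors 0.952 to 1.02) and tested with the quasi-likelihood test of edgeR 4.0.16 with robust settings under R 4.3.3, coded as Cd5l-transgenic minus 5xFAD, with a threshold of 0.05. Standard errors came from fold change and F statistic. Scripts were tested on simulated data. Alternatives used DESeq2 1.42.0, limma 3.58.1, other scalings and filters, the replicate number as a block, and each library left out, which can leave 1 mouse in 5xFAD, taken to vary like the other genotype. Centred profiles used log2 CPM with a prior count of 2, and coding sequences were aligned with biopython 1.88.

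The 7 members and 23 further lists were chosen with earlier results of these data known. Named were all members and up to 2 genes per list by smallest p, with 2 likest genes per member and 5 for the median profile.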

Additional observations from a re-analysis of the deposited data

How the results depend on the processing

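The 6 tested members kept a log2 fold change above 0 in all 74 values under 13 alternatives, and none passed the threshold in any (lowest adjusted p = 0.311, for Fn1 without 5xFAD replicate 3 and Cd5l-transgenic replicate 2). Their median was 0.49 to 1.15 with 1 library left out, the lowest without Cd5l-transgenic replicate 1, 1.12 without 5xFAD replicate 3 and Cd5l-transgenic replicate 2, and 0.70 to 0.92 otherwise. With 5 CPM required in 2 libraries only Chil3 and Fn1 remained to be tested. Genes called over the whole table numbered 0 higher and 0 lower. DESeq2 called 9 and 2, and without a low-count filter edgeR called 1 lower (Igfbp5). With 1 library left out there were 0 to 1 higher and 0 to 9 lower, the 9 being without 5xFAD replicate 1 (genes of cilia such as Dnah5 and Cfap44) and the 1 higher (Rpl30-ps10) and 1 lower (Atp6v0d2) without 5xFAD replicate 3; these genes are named after their values were seen. Without 5xFAD replicate 3 and Cd5l-transgenic replicate 2 together, an alternative chosen after seeing the data, there were 36 higher and 58 lower, no member among them; the cause was not tested. With the replicate number as a block 0 genes were called in either direction and the member median was 0.70; Fn1 stood at 0.37 (SE 0.08, edgeR adjusted p = 1). Nothing in the labels says that numbers mark a shared litter or day, so the numbers were not taken as pairs. Same-numbered libraries deviated with correlations of 0.13 and -0.24, and differently numbered ones with correlations from -0.31 to 0.31. With 2 libraries in 5xFAD their deviations mirror each other, so these correlations cannot decide on pairing. Vcan, Plac8 and Ly6c2 rest on 24 to 79 counts in most libraries, which limits their precision. That the mice are separate animals is read from their titles, and p-values measure the spread between these samples only.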

Other observations

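Lists of other cells that a CD11b-positive fraction could hold were measured beside the monocyte markers, each with 0 calls in edgeR. Border-associated macrophage genes, of the resident macrophages of meninges and vessels, had 7 of 10 above 0 (median log2 fold change 0.22) and summed to 1347, 1068 and 1371 CPM in Cd5l-transgenic replicates 1, 2 and 3, against 1055 and 1214 CPM in 5xFAD. The scavenger receptor Stab1 stood at 0.21 (SE 0.14) and the hyaluronan receptor Lyve1 at 0.50 (SE 0.32). Dendritic cell genes had 4 of 7 tested above 0 (median 0.27), with 34.3, 34.97 and 37.6 CPM in Cd5l-transgenic and 30.9 and 36.8 CPM in 5xFAD. Of 12 lymphocyte genes 7 were tested and 2 lay above 0 (median -0.17). Leaving out Ighm and Cd79b, which made most of the sum, the other 10 lymphocyte genes held 3.81, 3.51 and 5.48 CPM in Cd5l-transgenic, against 7.01 and 4.23 CPM in 5xFAD.

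Red cell RNA was higher in every Cd5l-transgenic library. The 6 erythroid genes summed to 7.47, 21.3 and 8.81 CPM in Cd5l-transgenic, against 2.44 and 1.50 CPM in 5xFAD, and all 5 tested ones lay above 0 (median log2 fold change 3.04). Hba-a1 passed in DESeq2 (adjusted p = 5.11e-04) but not in edgeR (adjusted p = 0.999). This list was highest in Cd5l-transgenic replicate 2, unlike Ly6c2, Plac8, Chil3, Vcan and Hp, which were highest in replicate 1, and its part in the values of those genes was not tested. Of the remaining lists, the 10 microglial genes had a median of 0.05, the 10 fibroblast genes -0.15 and the 7 astrocyte genes 0.15. The 8 oligodendrocyte genes had a median of 2.79, the 6 tested oligodendrocyte precursor genes 2.02 and the 8 choroid plexus genes -1.61. In the precursor list Olig1 (3.20), Olig2 (3.81), Sox10 (2.99) and Gpr17 (1.05) were highest in Cd5l-transgenic replicate 2. Cspg4 (0.03) was highest in Cd5l-transgenic replicate 1 and Pdgfra (-0.51) in 5xFAD replicate 3.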
